A study of Mus musculus with 6 samples.

Results

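Mast cells were followed through 8 marker genes, Cma1, Mcpt4, Tpsb2, Cpa3, Kit, Fcer1a, Ms4a2 and Hdc, in gastrocnemius muscle of male C57BL/6J mice. The members were every non-control probe of the array whose RefSeq accession belongs to one of these genes, which gave 9 probes for the 8 genes, Tpsb2 having 2. The young group was 3 mice at 13 weeks of age and the aged group 3 mice at 26 months of age, with no treatment or genetic change named for either group, and total RNA of each mouse was hybridized to its own single-colour (Cy3) Agilent array. In total, 20900 genes could be tested, 7 of them mast cell markers. The comparison asks which of these genes differ between young and aged muscle.

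Mast cells are tissue-resident immune cells that lie in the connective tissue around vessels, nerves and muscle bundles. They store histamine and proteases in granules bound to heparin-like proteoglycans, and release them when antigen crosslinks IgE on the high-affinity IgE receptor. Kit, the receptor of stem cell factor, keeps them alive in tissues. Chymases (Cma1 and Mcpt4), tryptase (Tpsb2) and carboxypeptidase A3 (Cpa3) fill the granules of connective tissue mast cells, and histidine decarboxylase (Hdc) makes histamine from histidine.

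In 2 of the markers tested every aged mouse was above every young mouse, namely Hdc, at 2.23 times the young level in aged mice, and Cma1, at 1.76 times. Fcer1a was at 1.81 times, but overlapped between the groups and was detected in only 1 young mouse. The other proteases were closer to the young level, from 1.11-fold for Tpsb2 to 1.31-fold for Mcpt4, and the mean of Kit was lower, at 0.785-fold. None of the 7 genes tested passed an adjusted p of 0.05 in limma, in which the smallest adjusted p among them was 0.136, for Hdc. At an unadjusted p under 0.05, 2 of the 7 were higher in aged mice and 0 lower.

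Each p measures the spread between mice, with 3 mice a group. All values are log2 signals after subtraction of the 75th percentile of the array, so that 0 is that percentile, and a difference of 1 is a doubling of the background-subtracted signal. A probe was detected where the scanner software called it well above background. The muscle markers bore out the tissue label, since all 8 tested (Acta1, Ckm, Mb, Ttn, Tnnt3, Myh4, Myh1 and Mylpf) were detected on all 6 arrays. The 75th percentile lay between 209 and 310 intensity units, and 48.7% to 53.8% of probes were detected per array. Over all genes tested, 0.196% were higher and 0.0574% lower in aged mice at an adjusted p under 0.05, against 0 and 0 of the 7 markers. At an unadjusted p under 0.05 these shares were 6.07% and 8.36%. Every aged mouse was above every young mouse for 7.92% of genes and below for 13.9%, against 2 and 0 of the 7 markers. The median difference was 0.39 over the 7 markers and -0.06 over all genes tested. The markers were chosen with earlier results of these data known, so these contrasts are a description. The 7 markers include Fcer1a, which was detected on all 3 arrays of aged mice and 1 of young mice, and so entered the test through the aged group.

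**Figure D1:**
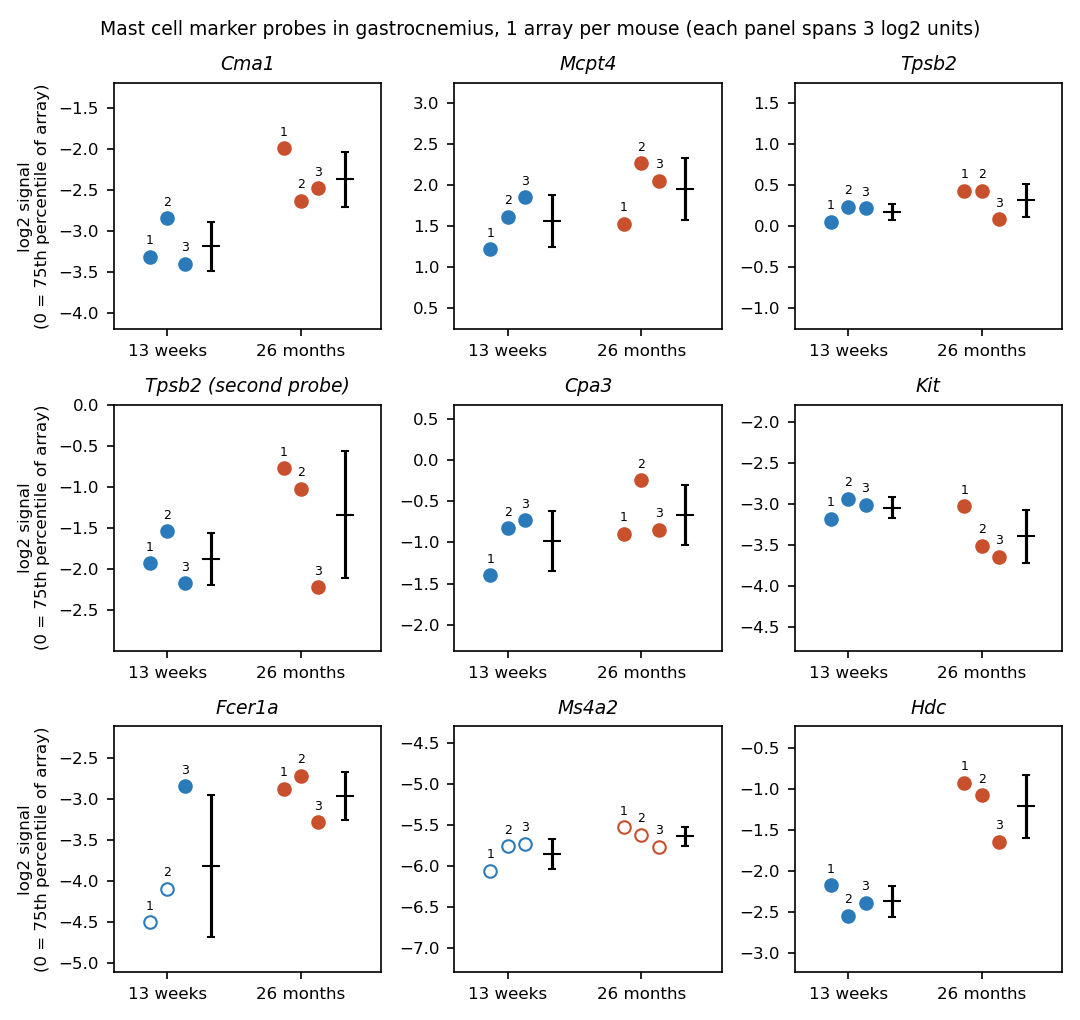
Log2 signal of each mast cell marker probe (0 is the 75th percentile of the array) in 3 mice at 13 weeks (blue) and 3 at 26 months (red), numbered by mouse, with black bars for the mean ± SD. Open points were not well above background. Every panel spans the same range of log2 units, and aged and young mice do not overlap for Hdc and Cma1.

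The proteases of the granules are described first. Cma1 encodes the chymase also called mouse mast cell protease 5. In the order of the mouse numbers, the log2 signals of young mice were -3.31, -2.84 and -3.40, and those of aged mice -1.99, -2.63 and -2.48. Aged mouse 1 was the highest, and the lowest aged mouse lay above the highest young one by less than the SD of either group. Young mice averaged -3.18 ± 0.30 and aged mice -2.37 ± 0.33 (SD, n = 3 each), a difference of 0.82 (standard error 0.24, 95% interval 0.24 to 1.39). The unadjusted p was 0.0122 and the adjusted p 0.229 in limma. The probe was dim, and with normexp at an offset of 50, which here started from the median spot signal and not from the processed signal, the difference was 0.11.

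Mcpt4 encodes the other connective tissue chymase. It was 1.22, 1.61 and 1.85 in young mice and 1.52, 2.26 and 2.05 in aged mice. Aged mouse 1 lay within the young range and aged mice 2 and 3 above it. The difference was 0.39 (standard error 0.26, adjusted p = 0.528 in limma). On the slide, the 3 young mice and aged mouse 1 were in array row 1 and aged mice 2 and 3 in row 2. With the row as a block, which sets aged mouse 1 alone against the young mice, the difference for Mcpt4 was -0.03, whereas that for Cma1 was 1.19. No young mouse shared row 2, so for aged mice 2 and 3 age and row cannot be told apart.

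Tpsb2 encodes the tryptase also called mouse mast cell protease 6, and its 2 probes were both detected on all 6 arrays. The brighter probe was 0.05, 0.23 and 0.22 in young mice and 0.43, 0.43 and 0.08 in aged mice. Aged mice 1 and 2 were above all young mice and aged mouse 3 among them. Its difference was 0.15 (95% interval -0.26 to 0.55, adjusted p = 0.719 in limma). The second probe gave -1.92, -1.53 and -2.17 against -0.77, -1.02 and -2.22, a difference of 0.54 with an adjusted p of 0.570 in limma run on probes. Both probes placed the same 2 aged mice above and the same aged mouse near or under the lowest young ones. Tryptase genes are close paralogs, as are the chymases, and how far a probe reads its neighbours was not tested.

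Cpa3, a carboxypeptidase that mast cells store in the same granules, was -1.40, -0.83 and -0.73 in young mice and -0.89, -0.24 and -0.85 in aged mice. Only aged mouse 2 was above the young range. The difference was 0.32 (95% interval -0.31 to 0.96, adjusted p = 0.601 in limma). The mean log2 signal of the 4 proteases was -0.86, -0.46 and -0.51 in young mice and -0.23, -0.05 and -0.30 in aged mice, so that for this average the groups did not overlap. This average was formed after the values had been seen and is a description.

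Promoters are shown for Hdc and for Cma1, Mcpt4 and Cpa3, the member proteases with a RefSeq promoter in the table used. GATA factors are known regulators of mast cell genes. Each sequence is the 250 bases before the start of the gene in GRCm38.p6, read 5′ to 3′ on the strand of the gene. Capitals mark the letters GATAA or, on the other strand, TTATC.
Cma1 (chr14:55944676-55944925, minus strand): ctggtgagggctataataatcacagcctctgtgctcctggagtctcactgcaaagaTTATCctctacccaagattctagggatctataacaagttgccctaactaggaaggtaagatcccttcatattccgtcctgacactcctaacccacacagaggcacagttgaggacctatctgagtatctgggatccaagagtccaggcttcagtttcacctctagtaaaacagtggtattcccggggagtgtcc
Mcpt4 (chr14:56062311-56062560, minus strand): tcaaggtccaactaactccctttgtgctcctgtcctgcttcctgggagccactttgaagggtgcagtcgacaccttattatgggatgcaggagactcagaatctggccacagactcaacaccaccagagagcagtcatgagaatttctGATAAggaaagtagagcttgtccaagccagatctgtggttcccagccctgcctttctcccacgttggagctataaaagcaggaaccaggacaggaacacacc
Cpa3 (chr3:20242182-20242431, minus strand): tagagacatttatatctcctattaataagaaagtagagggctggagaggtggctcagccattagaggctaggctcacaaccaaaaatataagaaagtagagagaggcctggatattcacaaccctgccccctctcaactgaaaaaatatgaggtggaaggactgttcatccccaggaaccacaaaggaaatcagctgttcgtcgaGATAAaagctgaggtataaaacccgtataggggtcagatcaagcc
Hdc (chr2:126618679-126618928, minus strand): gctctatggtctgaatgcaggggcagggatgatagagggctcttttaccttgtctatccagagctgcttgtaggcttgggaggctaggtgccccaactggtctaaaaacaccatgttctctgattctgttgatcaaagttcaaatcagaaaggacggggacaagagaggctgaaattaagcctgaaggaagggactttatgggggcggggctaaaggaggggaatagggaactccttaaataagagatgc
The letters occurred once in each of the 3 protease promoters, 194, 102 and 45 bases before the start for Cma1, Mcpt4 and Cpa3, and not in this window of Hdc. Of the 7 members with a promoter in the table, 5 held the letters, and so did 22.6% of all 32851 promoters there. Only GATAA and TTATC were searched. Other runs with GATA, such as gatag in the printed Hdc sequence, were not counted, so Hdc is not shown to lack GATA letters. A match is a run of letters and says nothing of binding.

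Hdc is the enzyme that makes histamine. Its log2 signal was -2.18, -2.55 and -2.39 in young mice and -0.92, -1.08 and -1.65 in aged mice. All 3 aged mice were above all 3 young mice, and aged mouse 3 was the lowest of the aged group. Young mice averaged -2.37 ± 0.19 and aged mice -1.22 ± 0.38 (SD, n = 3 each), a difference of 1.15 (standard error 0.23, 95% interval 0.60 to 1.71). The unadjusted p was 0.00178 and the adjusted p 0.136 in limma, short of the threshold. The difference stayed above 0 in all 17 other ways of processing, from 0.47 under normexp to 1.45 with the row as a block. Its adjusted p in limma lay between 0.121 and 0.369. Filters, probe averaging, the variance trend, the replicate block and the series matrix could not change this difference, which stayed at 1.15.

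Whether Hdc stood apart from the granule proteases was asked within each array, with the mean of the 4 proteases subtracted from Hdc. This gave -1.31, -2.09 and -1.87 in young mice and -0.69, -1.03 and -1.35 in aged mice. Aged mouse 3 was just below young mouse 1, so the groups overlapped. The change of 0.74 had p = 0.2 in an exact two-sided permutation test, in which 3 mice against 3 cannot give a p below 0.1. Against single members, Hdc minus Kit averaged 0.67 in young and 2.17 in aged mice, and Hdc minus Tpsb2 -2.54 and -1.53, each with an exact p of 0.1. Against Cma1 the change was 0.34 with an exact p of 0.5. These were 7 comparisons chosen after the values were seen, and the smallest p adjusted over them was 0.35.

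**Figure D2:**
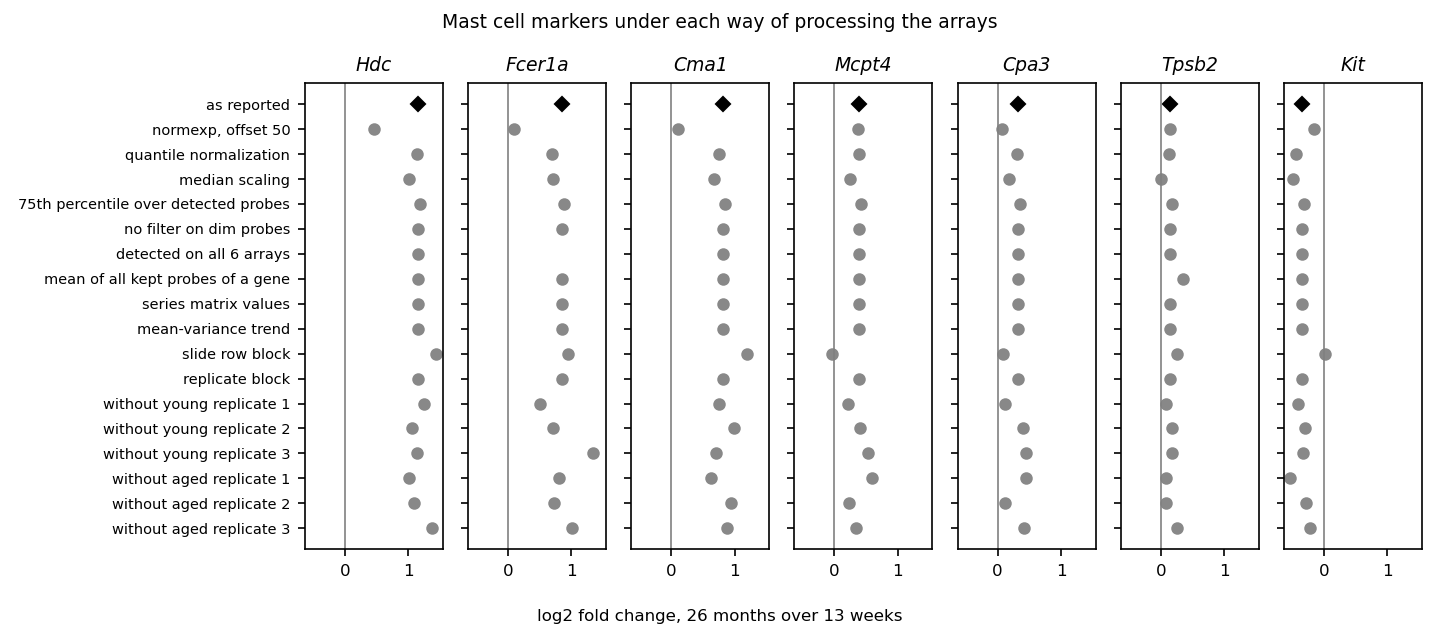
Log2 fold change of 7 mast cell markers (26 months over 13 weeks, horizontal axis) as reported (black diamonds) and under each other way of processing or leaving out 1 mouse (grey points). Each gene has 1 panel and each way of processing 1 row. Hdc, Fcer1a, Cma1 and Cpa3 stay right of 0 throughout, and normexp brings Cma1, Fcer1a and Cpa3 close to 0.

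The receptors did not follow 1 pattern. Kit, read by 2 spots of 1 probe that were averaged, was -3.18, -2.93 and -3.01 in young mice and -3.02, -3.51 and -3.64 in aged mice. Aged mouse 1 was within the young range and aged mice 2 and 3 below it. The difference was -0.35 (95% interval -0.84 to 0.14, adjusted p = 0.479 in limma), and 0.02 with the slide row as a block. Besides mast cells, Kit is expressed by melanocytes and by other progenitor cells.

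Fcer1a encodes the chain of the IgE receptor that binds IgE. Its signal was -4.50, -4.09 and -2.85 in young mice, of which only mouse 3 was detected, and -2.87, -2.72 and -3.29 in aged mice, all detected. Young mouse 3 was among the aged mice and the other two were below them. The difference was 0.85 (95% interval -0.16 to 1.87, adjusted p = 0.414 in limma). It was 1.34 without young mouse 3 (unadjusted p = 0.00192 and adjusted p = 0.194 in limma) and 0.51 without young mouse 1. Leaving out young mouse 3 left only young values below detection, so the 1.34 and its p rest on undetected signals. Ms4a2, the chain of the receptor that amplifies its signal, was detected on 0 of 6 arrays and was not tested. In bulk tissue, fewer cells of a type and less RNA per cell cannot be told apart.

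The third chain of the receptor, Fcer1g, is shared with other immune cells. It was 1.15, 1.18 and 1.39 in young mice and 2.10, 1.80 and 2.44 in aged mice. All aged mice were above all young mice, with a difference of 0.87 (95% interval 0.38 to 1.37) and an adjusted p of 0.164 in limma. That order held for 7.92% of all genes tested. Fcer1g belongs to a list of 13 genes of IgE receptor signalling, of which 9 were tested. None passed the adjusted threshold in limma, 3 were higher at an unadjusted p under 0.05 and 0 lower (6.07% and 8.36% over all genes tested), and the median difference was 0.27. Besides Fcer1g these were Vav1, an exchange factor for Rac (0.89, adjusted p = 0.162 in limma), and Lyn, a kinase that phosphorylates the receptor. Lyn was detected on 3 arrays of aged and 0 of young mice and, like Fcer1a, entered the test and this count through the aged group. As processed here, with its young signals treated as undetected, the group means of Lyn gave a 1.36-fold higher value in aged mice. This figure leaves out the spread between mice and is no lower limit. The fitted log2 difference was 0.64 (95% interval 0.22 to 1.07, adjusted p = 0.205 in limma). Among the alternatives the log2 difference of Lyn was as low as 0.12, a smaller change than 1.36-fold. Syk, the kinase after Lyn, differed by -0.01.

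Of 7 other mast cell protease genes, 2 were tested. Tpsg1, a membrane-anchored tryptase, differed by 0.37 (95% interval -0.45 to 1.19) and Cma2, a chymase-like gene, by 0.30 (95% interval -0.18 to 0.78). The chymases of mucosal mast cells, Mcpt1 and Mcpt2, were detected on 0 of 6 arrays. Tpsab1, the other secreted tryptase, had no probe named by a RefSeq accession. Among 10 genes of the mast cell surface and of granule storage, 6 were tested and 0 had an unadjusted p under 0.05, with a median of -0.15. Cd63, a tetraspanin of granule membranes that many cells make, differed by 0.45 (adjusted p = 0.414 in limma), and Slc18a2, which loads histamine into vesicles, by -0.25 (adjusted p = 0.558 in limma). Srgn, the proteoglycan core that holds proteases in granules, differed by -0.10, with a 95% interval of -0.49 to 0.30. Mrgprb1 and Mrgprb2, receptors of the connective tissue type, were detected on 0 of 6 arrays, as were Cd200r3 and Adora3.

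Genes that set mast cell number and fate pointed in both directions. Of 10 listed, 7 were tested, none passed the adjusted threshold in limma, 1 was higher and 1 lower at an unadjusted p under 0.05 (6.07% and 8.36% over all genes tested), and the median was -0.17. Csf2rb, the shared receptor chain for IL-3, IL-5 and GM-CSF, was -0.75, -0.75 and -0.80 in young mice and 0.70, 0.30 and 0.99 in aged mice. The young mice lay close together and all aged mice above them, with a difference of 1.43 (95% interval 0.94 to 1.93) and an adjusted p of 0.0659 in limma. A second, dimmer probe of Csf2rb differed by 0.17. Gata2, a transcription factor of mast cells that endothelial cells also express, was 0.37, 0.03 and 0.20 in young and -0.04, -0.42 and -1.09 in aged mice. All aged mice were below all young mice, with a difference of -0.71 (unadjusted p = 0.0408 and adjusted p = 0.327 in limma). Kitl, the ligand of Kit, differed by -0.27 and Tal1, a transcription factor of blood cell lineages, by -0.36, both with all aged mice below all young mice and adjusted p of 0.483 and 0.370 in limma. Of the 7 tested, 3 had every aged mouse below every young mouse and 1 above, against 13.9% and 7.92% of all genes tested. Gata1, Il3 and Il9r were detected on 0 of 6 arrays.

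Around Hdc, the list of histamine and serotonin genes holds enzymes and receptors. Hnmt, which methylates histamine and so inactivates it, was 0.06, -0.06 and 0.69 in young mice and -0.24, -0.16 and -0.50 in aged mice. All aged mice were below all young mice, with a difference of -0.53 (95% interval -1.10 to 0.04, adjusted p = 0.373 in limma) and of -0.42 at a second probe. Aoc1, which oxidizes histamine, was detected on 0 of 6 arrays. Of the receptors, Hrh1, Hrh3 and Hrh4 differed by -0.04, 0.02 and -0.16, and Hrh2 had no probe named by a RefSeq accession. For serotonin, Tph1, which hydroxylates tryptophan, differed by -0.40 (adjusted p = 0.529 in limma). Ddc, which makes the amine from its amino acid, was higher by 1.62 at 1 probe (unadjusted p = 0.0358 and adjusted p = 0.316 in limma), while its other probe was detected on 0 of 6 arrays. Aged mouse 1 was within the young range for Ddc, and with the slide row as a block the difference was 0.25. Of the 11 genes of this list, 8 were tested, with a median of -0.01.

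The enzymes of leukotriene and prostaglandin synthesis, which mast cells share with other leukocytes and platelets, gave 5 tested genes of 7. At an unadjusted p under 0.05 (6.07% of all genes tested were higher and 8.36% lower), Alox5ap was higher (0.78, adjusted p = 0.245 in limma), and Ptgs1 and Pla2g4a were lower (-0.82 and -0.73, adjusted p = 0.207 and 0.196 in limma). Ltc4s differed by 0.00 (95% interval -0.54 to 0.55). Hpgds, the prostaglandin D synthase of mast cells, was detected on 0 of 6 arrays.

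**Figure D3:**
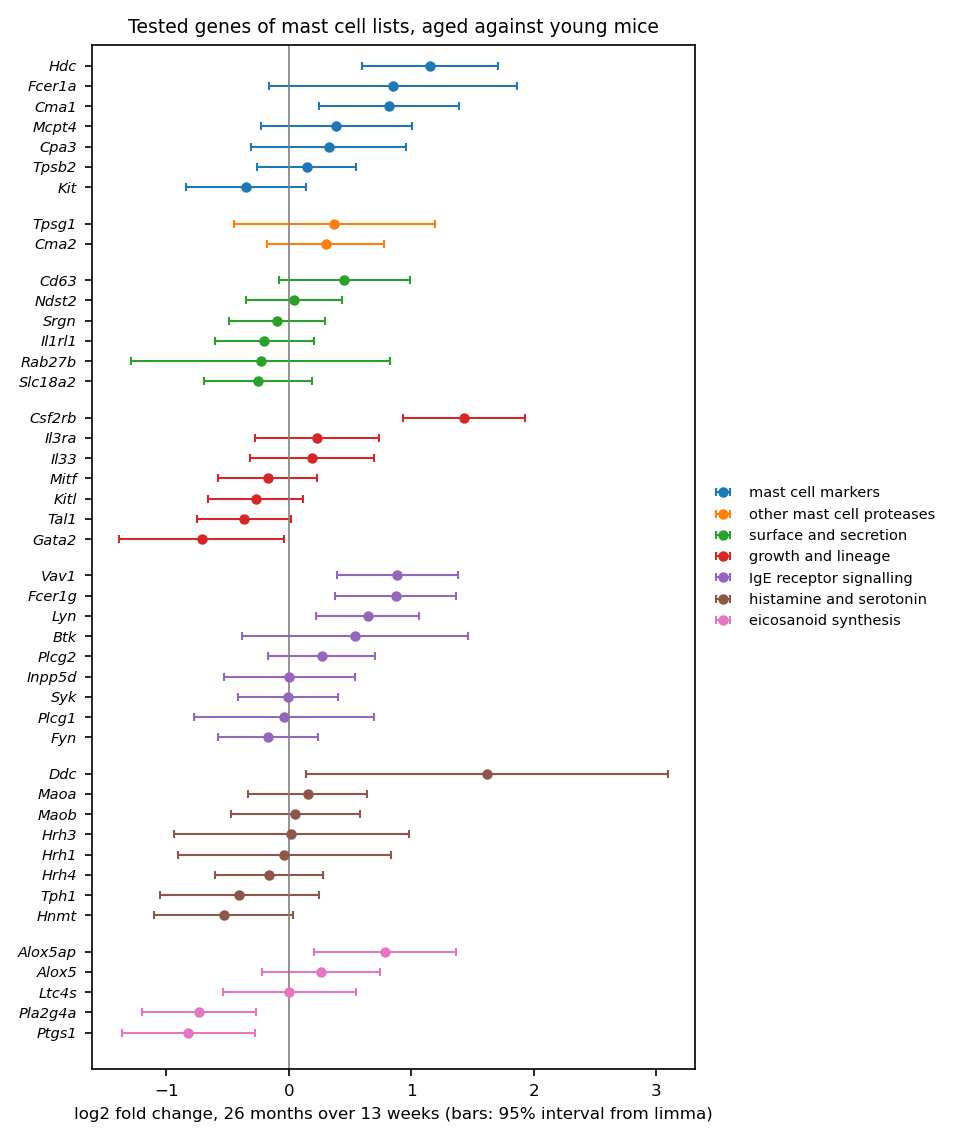
Log2 fold change (26 months over 13 weeks) with its 95% interval from limma, 3 mice a group, for the tested genes of 7 lists, 1 colour per list. The largest values belong to Ddc, Csf2rb and Hdc, and Ptgs1 and Pla2g4a lie farthest left; the fitted value of Lyn rests on young arrays below background.

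Several members are also made by other leukocytes, so markers of those cells were read on the same arrays. Of 10 macrophage markers, 8 were tested and 3 had every aged mouse above every young mouse, namely Cd68 (1.08), Adgre1 (0.64) and Mrc1 (0.46), with adjusted p of 0.175, 0.232 and 0.354 in limma. The share of all genes tested with that order was 7.92%. Csf1r and Itgam, a receptor and an integrin chain of the same list, differed by -0.05 and -0.26. Cd163 was detected on 0 arrays. The summed macrophage signal was 38.4 to 45.7 times the 75th percentile in young and 41.4 to 43.3 times in aged mice. Itgam and Csf1r, at young means of 4.58 and 3.74 against 1.23 for Cd68, give most of this sum. It therefore shows little of the other genes. The other probes of Itgam and Csf1r were dimmer, all below 0. Macrophages also express Fcer1g, Csf2rb, Lyn and Alox5ap, and their part in these values was not tested.

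Neutrophils can express Hdc. On a list of 12 neutrophil genes, added after values had been seen, 6 were tested, and S100a8 and S100a9 passed the adjusted threshold (4.80 and 4.70 higher in aged mice, adjusted p = 0.0060 for both in limma). Of all genes tested, 0.196% were higher at that threshold. Because the list was added with values known, its count of genes past the threshold is a description. S100a8 and S100a9 were past the threshold in 15 of 17 alternatives, and without aged mouse 3 their adjusted p was 0.0557 in limma. Retnlg was detected on 3 arrays of aged and 0 of young mice, so that it entered the test through the aged group. As processed here, with its young signals treated as undetected, the group means of Retnlg gave an 8.23-fold higher value in aged mice. This figure leaves out the spread between mice and is no lower limit. The fitted log2 difference was 3.45 (95% interval 2.32 to 4.58, adjusted p = 0.0603 in limma). Under normexp the log2 difference of Retnlg was 1.37, a smaller change than 8.23-fold. Camp, Elane and Csf3r of the same list differed by -0.40, -0.31 and 0.05. The probe of Csf3r was bright, at a young mean of 7.30 against -1.46 for Camp and -0.74 for Elane. Which RNA this probe reads was not tested. Ngp and Mpo, of neutrophil precursor granules, were detected on 0 arrays. The summed signal of the list was 157 to 161 times the 75th percentile in young and 169 to 199 times in aged mice, of which the probe of Csf3r alone gave 144 to 182 times, so that the sum shows little of the other genes. The part of neutrophils in the Hdc value was not tested.

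The basophil markers Mcpt8, Prss34 and Itga2 were detected on 0 of 6 arrays, as were the eosinophil markers Epx, Prg2 and Siglecf. The 2 of 6 eosinophil markers tested had a median difference of 0.54 and overlapped between groups, and their summed signal was 0.335 to 0.780 times the 75th percentile in young and 0.571 to 1.02 times in aged mice. Of the 5 melanocyte genes, Tyrp1 and Pmel were detected on 0 of 6 arrays. Dct, an enzyme of melanin synthesis, was higher by 1.64 (unadjusted p = 0.00331 and adjusted p = 0.153 in limma) with every aged mouse above every young mouse. That order held for 7.92% of all genes tested. Tyr differed by -0.10, and the summed melanocyte signal was 0.220 to 0.263 times the 75th percentile in young and 0.367 to 0.582 times in aged mice. Mast cells lie in connective tissue. Of 10 fibroblast and connective tissue genes, 9 had a lower mean in aged mice, 6 had every aged mouse below every young mouse, 5 were lower at an unadjusted p under 0.05 and none at an adjusted p under 0.05 in limma. Over all genes tested, 11882 of 20900 had a lower mean, 13.9% had every aged mouse below every young mouse and 8.36% were lower at an unadjusted p under 0.05. The median was -0.53, and the summed signal was 487 to 555 times the 75th percentile in young and 241 to 374 times in aged mice. Dcn gives the largest part of this sum, at 8.43, 8.36 and 8.48 in young and 8.28, 7.56 and 6.87 in aged mice. The part of these cell types in the mast cell values was not tested.

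**Figure D4:**
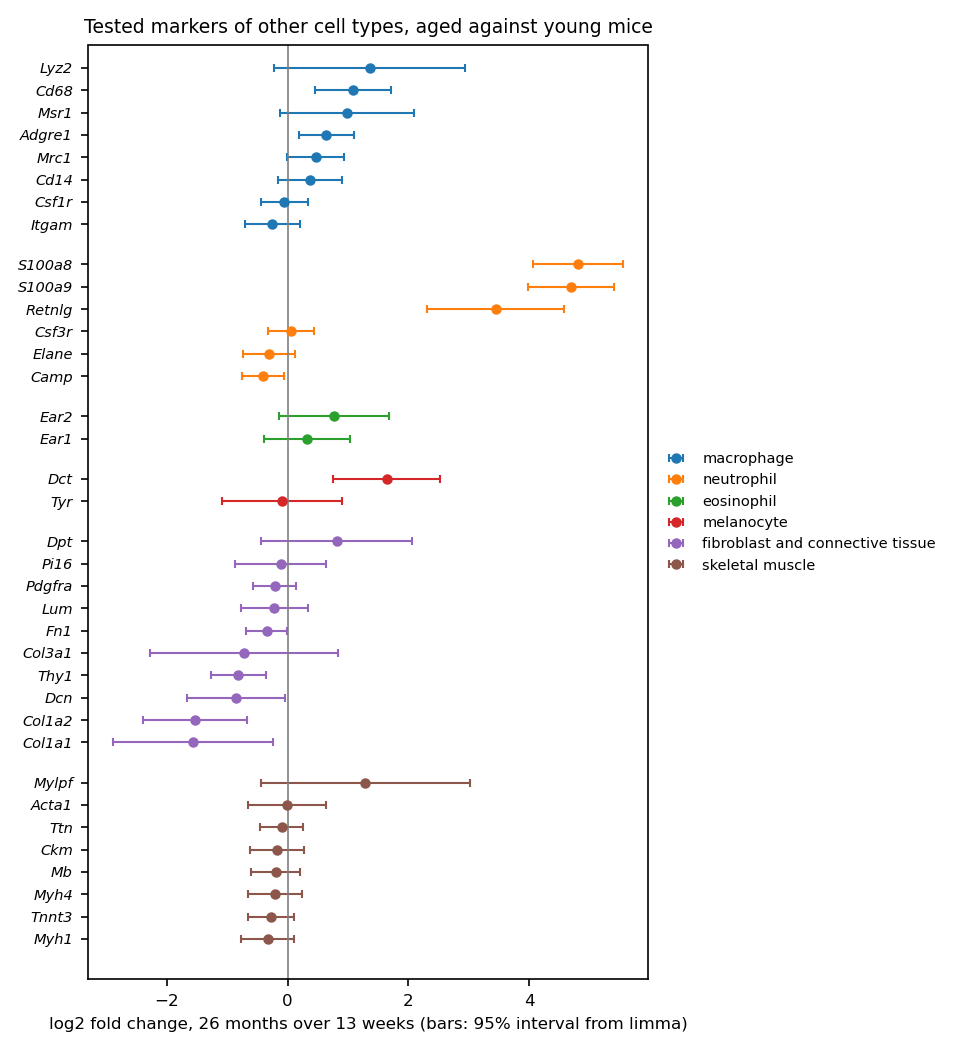
Log2 fold change (26 months over 13 weeks) with its 95% interval from limma, 3 mice a group, for tested markers of 6 other tissues and cell types, 1 colour per list. S100a8, S100a9 and Retnlg lie far to the right (Retnlg was below background in all young mice), most fibroblast genes lie left of 0, and 7 of 8 muscle genes have a mean difference under 0.

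The 5 genes whose signal over the 6 arrays was most like the mean of the 4 standardized protease signals, among 13837 genes with a symbol, were Fam43a (Pearson r = 0.98, Spearman rho = 1), Nemf (0.97 and 0.94), Cpne7 (0.96 and 1), Slfn9 (0.96 and 0.94) and Lrch4 (0.96 and 1). These values chose the genes and were taken over 6 arrays that share their scaling, so they carry no test. Fam43a was -3.16, -1.57 and -1.86 in young mice and -1.38, -0.42 and -1.49 in aged mice, with young mouse 1 lowest and aged mouse 2 highest, as for Cpa3. No other mast cell gene of the lists was among the 5. The proteases differed in how closely each followed the other 3, with r of 0.81 for Cpa3, 0.66 for Tpsb2, 0.59 for Mcpt4 and 0.41 for Cma1 over the 6 arrays.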

How the data were processed

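Gene expression was measured with 1 single-colour array per mouse. The deposited intensity values are the processed signal, background-subtracted and detrended by the authors with Agilent Feature Extraction (version 11.0.1.1 in the file headers, 9.5 in the submitters' processing notes), and median pixel values of spot and local background. The methods name no scaling or test. Flagged spots were left out, spots of a probe averaged as log2, and the 75th percentile of each array subtracted. Accessions were matched to RefSeq (GRCm38.p6), which named 28331 of 55681 probes. The array was designed on mm9, so no probe position is given. Genes kept the brightest unsaturated probe detected on at least 3 of 6 arrays. The effect of age was fitted by limma 3.58.1 under R 4.3.3 (lmFit, eBayes, Benjamini-Hochberg over 20900 genes), and the script was tested on simulated data. Alternatives were background correction, scaling, filters, probe averaging, a variance trend, slide row and replicate number as blocks, and leaving out each mouse. Named genes were the members, up to 4 genes of each list by p, undetected defining markers, and the 5 genes most like the proteases. A few further list genes were named after their values were seen. The members and lists were chosen with earlier results of these data known. The series matrix held the same values. The number of arrays limits the precision.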

Additional observations from a re-analysis of the deposited data

How the results depend on the processing

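No mast cell marker and no gene of the other lists fixed at the start passed the adjusted threshold in limma under any of the 17 alternatives. Of 118 marker values, 115 kept their direction. Filters, the variance trend, the replicate block and the series matrix left the marker values unchanged, so those values kept their direction by construction. Tpsb2 was -0.0017 with median scaling, which moved the median of all genes from -0.06 to -0.21, and with the slide row as a block Kit was 0.016 and Mcpt4 -0.034. The cause was not tested. The number of genes past the threshold over all genes, 53, was 8 with no filter on dim probes, 35 with probes detected on all 6 arrays, 5 with a block for replicate number, 8 or 9 without 1 young mouse or aged mouse 2, 1 without aged mouse 3 and 199 without aged mouse 1. At an unadjusted p under 0.05, the 2 higher markers, Hdc and Cma1, were joined by Mcpt4 without aged mouse 1. Fcer1a joined them without young mouse 3, the only young mouse in which it was detected. Hdc alone was left under normexp. Kit was lower at that threshold with quantile normalization, with median scaling and without aged mouse 1 (-0.44, -0.50 and -0.53). S100a8 and S100a9 had an adjusted p of 0.0633 in limma with a block for replicate number. Filters change the number of genes tested. The deviations of same-numbered mice correlated at -0.06, -0.27 and 0.03, and those of unlike-numbered mice at -0.21 to 0.35. With 3 mice a group these values cannot decide whether the numbers pair samples. The block for replicate number called 0 markers. Under normexp, which used the median spot signal, the differences of the dim probes of Hdc, Cma1 and Fcer1a were 0.47, 0.11 and 0.10. That of Cpa3, a brighter probe, was 0.07, and those of Mcpt4, Tpsb2 and Kit were 0.38, 0.14 and -0.16. Signals near background limit Kit, Fcer1a and Cma1.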
